A study of Mus musculus with 4 samples.

Results

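Complement is a set of blood and cell surface proteins that marks damaged cells and microbes and can open pores in their membranes. The classical and lectin pathways begin with small protease complexes that cut C4 and C2, the alternative pathway builds on C3 and factor B, and all of them meet at the cutting of C3. Host cells carry regulators that take these complexes apart, and kidney tubules are known to make C3 of their own besides the supply from liver. This section describes 8 genes of that system, *C1ra*, *C4b*, *C3*, *Cfb*, *Cfi*, *Cd55*, *Cd59a* and *C3ar1*, chosen by name from the 32285 genes listed for each library. The choice was made with earlier results of these data known. Counts of members set beside shares of all genes are therefore descriptions.

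The values were UMI counts from 10x Genomics Visium, in which barcoded spots under a 10 µm tissue section each take up RNA from a small region that can hold several cells. There were 2 normal and 2 ischemic sections of left kidney, all from male WT C57BL/6J mice aged 7 to 8 weeks. Ischemic mice had clamps on both renal pedicles for 30 minutes and were taken 24 hours later, and the labels name no sham surgery for the normal mice. The study describes 2 mice per condition, each with 2 technical replicates. The mouse behind each section was not given, so the 2 sections of a condition could be from 1 mouse. The tests measure the spread between sections, which may be technical in part or in whole. The 4 capture areas were on 1 slide, and the sections are called normal 1 and 2 and ischemic 1 and 2 after their labels. Cells lost from a region and less RNA per cell cannot be told apart in such spots.

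The sections held 2401 to 2682 tissue spots and 25957128 to 44528078 UMIs each. Injury marker genes went with the labels: *Havcr1*, which encodes the tubule injury protein KIM-1, had 43 and 59 counts in the normal and 43731 and 36668 counts in the ischemic sections. The condition moved much of the transcriptome, with 60.6% of 15305 tested genes called between ischemic and normal sections. The normal sections also held fat that the ischemic ones did not: 128 and 63 spots had, with their neighbours, at least 5 counts of adipocyte genes (*Adipoq*, *Plin1*, *Cidec*, *Retn*, *Lep*), against 0 and 0 spots in the ischemic sections. T cell genes went the same way, at 16.7 and 28.1 CPM in the normal and 2.12 and 2.27 CPM in the ischemic sections, summed over 5 genes.

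All 8 members are protein coding, and positions are on GRCm38, the assembly also called mm10. *C3* (chr17:57203970-57228136), *C4b* (chr17:34728380-34743882) and *Cfb* (chr17:34856374-34862518) lie on chromosome 17, the last 2 in the same stretch of it. *Cfi* is at chr3:129835884-129875332, *Cd55* at chr1:130439027-130462744 and *Cd59a* at chr2:104095801-104115354. *C1ra* (chr6:124512405-124523443) and *C3ar1* (chr6:122847138-122856161) are on chromosome 6. In GENCODE M21, 79.5% of the exonic bases of *Cfb* also belong to *Gm20547*, a read-through gene on the same strand, and *C4b*, *C1ra*, *Cd55* and *Cd59a* have related genes in the mouse (*C4a*, *C1rb*, *Cd55b*, *Cd59b*). How alike these pairs are in sequence was not measured, so counts of these 5 members are uncertain as far as reads could be assigned to either gene.

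Upstream sequence was matched by symbol for 5 of the 8 members in RefSeq (GRCm38.p6). The 250 bases before the start of *C3*, the member whose whole-section level rose, are shown with those of *Cd55*, which fell, and of *C3ar1*, so that the letters of inflammation-linked motifs can be compared between members that moved differently. Capitals mark matches on either strand to NF-kB (GGGA, any 4 bases, then CC), C/EBP (TTGCNNAAT) or AP-1 (TGANTCA). All 3 genes are on the minus strand and are written 5′ to 3′. The windows end at the start site as RefSeq places it and are chr17:57228137-57228386, chr1:130462745-130462994 and chr6:122856158-122856407.
C3: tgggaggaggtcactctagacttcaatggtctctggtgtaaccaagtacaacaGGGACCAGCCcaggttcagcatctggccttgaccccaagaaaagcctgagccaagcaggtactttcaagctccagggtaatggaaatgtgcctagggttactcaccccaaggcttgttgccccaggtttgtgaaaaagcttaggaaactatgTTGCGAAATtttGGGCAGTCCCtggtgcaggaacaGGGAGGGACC
Cd55: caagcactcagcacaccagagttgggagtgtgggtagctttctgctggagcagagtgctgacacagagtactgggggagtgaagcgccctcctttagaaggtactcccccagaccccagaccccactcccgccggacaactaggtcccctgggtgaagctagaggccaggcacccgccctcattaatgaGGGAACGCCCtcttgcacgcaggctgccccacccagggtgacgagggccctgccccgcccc
C3ar1: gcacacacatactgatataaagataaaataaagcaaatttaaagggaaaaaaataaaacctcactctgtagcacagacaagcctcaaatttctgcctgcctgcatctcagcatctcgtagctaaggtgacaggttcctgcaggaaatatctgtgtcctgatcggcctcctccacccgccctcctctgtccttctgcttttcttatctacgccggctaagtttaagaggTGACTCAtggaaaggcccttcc

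The *C3* window held 3 NF-kB matches, 1 of them on the opposite strand, and 1 C/EBP match, which ended 3 bases before the NF-kB match that follows it. The *Cd55* window held 1 NF-kB match and the *C3ar1* window 1 AP-1 match. The same letters occurred in 17.6% (NF-kB), 2.11% (C/EBP) and 6.75% (AP-1) of 32851 windows of this length. The *Cd59a* window held 1 match to the ISRE letters (GAAA, any 2 bases, then GAAA), found in 2.98% of windows, and the STAT letters TTCNNNGAA, found in 7.02%, were in none of the 5 windows. The *C1ra* window held none of the letters searched. A match of letters is a description and was not tested as a site of binding.

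Over whole sections, ischemia left *C3* as the only member of the 8 that rose, while 6 members fell and *C3ar1* did not pass the test. Counts were summed over all spots of a section, scaled to CPM with TMM factors for library size, and compared with edgeR's quasi-likelihood test at a Benjamini-Hochberg adjusted p of 0.05 over all genes. By that rule 31% of all tested genes were higher and 29.7% lower, against 1 and 6 of the 8 members. The median log2 fold change of the members was -0.86 and that of all tested genes 0.04. No member's normal and ischemic sections overlapped, which was also true of 82.2% of all tested genes.

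**Figure D1:**
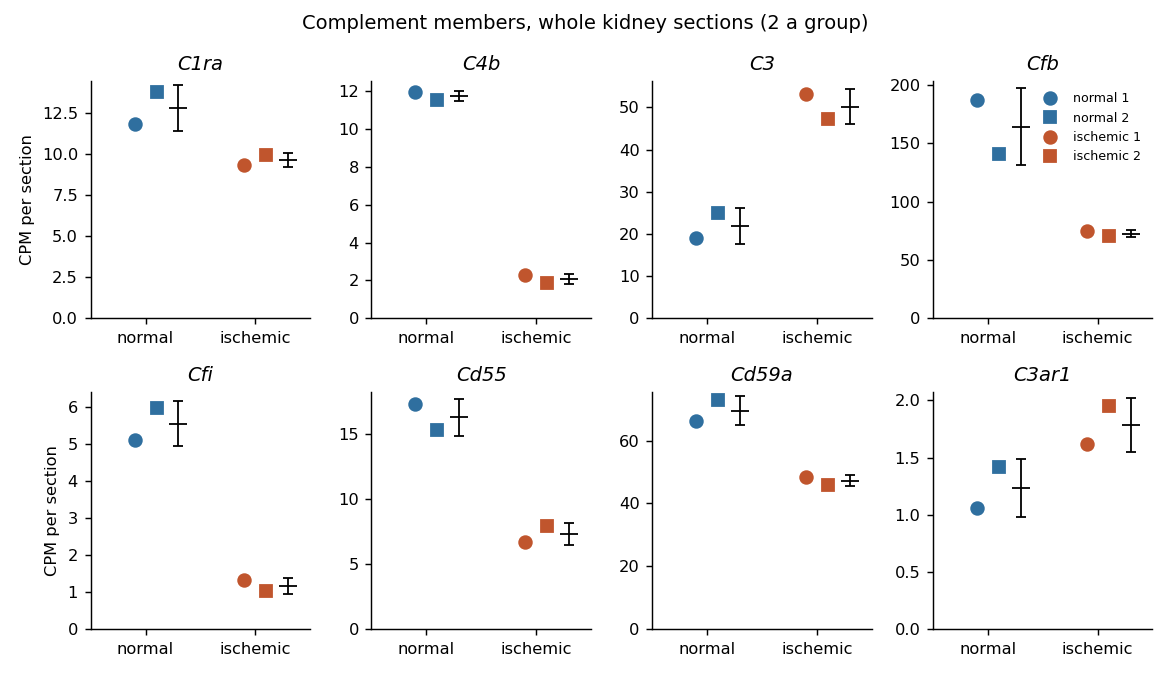
Level of each member in each section (CPM, y axis from 0) for the 2 normal (blue) and 2 ischemic (orange) sections, with the group mean and SD in black. The ischemic points of C3 lie above its normal points, at 53.2 and 47.2 against 18.9 and 25.0 CPM, and those of C4b, Cfb, Cfi, Cd55, Cd59a and C1ra lie below.

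*C1ra* encodes the protease C1r, which activates C1s once C1q has bound its target. Its level was 11.8 and 13.8 CPM in normal 1 and 2 and 9.30 and 9.91 CPM in ischemic 1 and 2. The ischemic sections were the lower ones, by a small step, with a log2 fold change of -0.41 (SE 0.12, edgeR adjusted p = 0.0175). The call was lost when either ischemic section was left out (adjusted p = 0.164 without ischemic 1 and 0.0793 without ischemic 2), with DESeq2 (0.0722) and with library totals in place of TMM (0.573).

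*C4b* encodes complement C4, the first substrate of the C1 and lectin proteases. It stood at 11.95 and 11.6 CPM in the normal and at 2.27 and 1.88 CPM in the ischemic sections, from 441, 319, 77 and 54 counts. This was a 5.63-fold lower level in ischemic sections and the largest fall of the 8 members, within error of that of *Cfi* (log2 fold change -2.49, SE 0.16, edgeR adjusted p = 2.51e-06). Fat spots held 21.8% and 13.8% of the *C4b* counts of the normal sections, and without them the log2 fold change was -2.26.

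*C3* encodes the central component, cut by every pathway. Its level was 18.9 and 25.0 CPM in the normal and 53.2 and 47.2 CPM in the ischemic sections. It rose 2.30-fold, with a log2 fold change of 1.20 (SE 0.14, edgeR adjusted p = 7.09e-05). In the normal sections 33.3% and 13.9% of its counts came from fat spots that held 2.77% and 1.92% of the UMIs, and without those spots the log2 fold change was 1.52.

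More spots held *C3* after ischemia. A *C3* UMI was found in 14.5% (95% exact Clopper-Pearson interval 13.2 to 15.9) and 12.4% (11.2 to 13.7) of normal spots and in 38.98% (37.0 to 40.97) and 31.9% (30.1 to 33.7) of ischemic spots, intervals that cover counting error only. With each spot thinned to 2000 UMIs the shares were 4.28% and 4.90% in the normal and 9.77% and 8.85% in the ischemic sections, so the order held at equal depth.

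*Cfb* encodes factor B, the protease that joins C3b to form the alternative pathway convertase. It had the most counts of the 8 members, 6920 and 3894 in the normal and 2538 and 2021 in the ischemic sections. The level fell from 187.6 and 141.1 CPM to 74.7 and 70.5 CPM (log2 fold change -1.18, SE 0.15, edgeR adjusted p = 0.000131). *Cfb* and *C3*, whose products form 1 complex, thus moved in opposite directions over whole sections.

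All 3 regulators fell, by different amounts. *Cfi* encodes factor I, the protease that inactivates C3b and C4b, and went from 5.12 and 5.98 CPM to 1.32 and 1.01 CPM (log2 fold change -2.23, SE 0.23, edgeR adjusted p = 3.60e-05), resting on only 45 and 29 ischemic counts. *Cd55* encodes decay-accelerating factor, which takes convertases apart, and went from 17.2 and 15.3 CPM to 6.68 and 7.89 CPM (log2 fold change -1.16, SE 0.13, edgeR adjusted p = 6.46e-05). *Cd59a* encodes the inhibitor of the membrane pore and went from 66.3 and 72.8 CPM to 48.4 and 45.9 CPM (log2 fold change -0.56, SE 0.10, edgeR adjusted p = 0.00114). The *Cd59a* call was lost with library totals in place of TMM (adjusted p = 0.0913), a scaling that moved the median of all genes to 0.31.

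*C3ar1* encodes the receptor for C3a, a signal for myeloid cells. It was the least counted member, with 39 and 39 counts in the normal and 55 and 56 in the ischemic sections. Its level of 1.06 and 1.41 CPM in normal and 1.62 and 1.95 CPM in ischemic sections gave a log2 fold change of 0.54 (SE 0.27) that did not pass the test (edgeR adjusted p = 0.113). The adjusted p was 0.0368 with normal 2 left out. Macrophage genes summed to 118 and 128 CPM in the normal and 113 and 106 CPM in the ischemic sections, while neutrophil genes summed to 1.71 and 2.17 and to 162 and 161 CPM. Of the 6 macrophage genes, *Cd68* was higher (log2 fold change 2.25), *Csf1r* was lower (-1.96) and 4 were not called, so the sum hides opposite changes. The part of macrophages and neutrophils in the *C3ar1* values was not tested.

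Of 48 other complement genes, 31 could be tested, and 9 were higher and 15 lower after ischemia, where 31% and 29.7% of all tested genes were. The median log2 fold change of the 31 was -0.45. The start of the classical and lectin pathways was mostly lower, as *C1ra* and *C4b* were, with 9 of 13 tested genes down. Examples were *C1s1*, the partner protease of C1r (log2 fold change -1.29), *C2*, which joins C4b in a convertase (-0.94), and the lectin *Colec11* (-3.94). *C1qa*, *C1qb* and *C1qc*, made by macrophages, were lower by small steps (-0.41, -0.45 and -0.55). These 3 calls were lost with library totals, with adjusted p of 0.467, 0.369 and 0.211. *Masp1*, a lectin pathway protease, and the scavenger receptor *Colec12* were the 2 of this group that were higher (2.44 and 1.02), while *Masp2* was lower (-3.80).

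Both tested terminal genes were lower, and so was 1 of the 2 alternative loop genes. The other 5 of the 7 terminal genes had at most 24 counts over the 4 sections and were not tested. *C8a* and *C8g*, parts of the membrane pore, had 733, 371, 16 and 22 counts and 1856, 961, 161 and 102 counts in normal 1, normal 2, ischemic 1 and ischemic 2 (log2 fold changes -4.77 and -3.35). *Cfd*, the fat-derived protease that cuts factor B, had 9737 and 2870 counts in the normal and 9 and 8 in the ischemic sections (-9.39), and without fat spots the log2 fold change was -3.97. *Cfp*, which encodes properdin, was not called (0.01).

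Regulators outside the members were split. *Clu*, encoding the pore inhibitor clusterin, had the largest positive log2 fold change of the tested complement genes, with 8923 and 8107 counts in the normal and 130855 and 117263 in the ischemic sections (log2 fold change 3.89, edgeR adjusted p = 7.51e-07). *Cr1l*, the mouse convertase regulator Crry, was higher (0.50) and *Cfhr2* was higher from 1 and 3 to 11 and 13 counts. *Serping1*, the C1 inhibitor, was lower (-1.05), and so was *Cd59b*, related to *Cd59a* (-2.36). Receptors were mostly higher, with *C5ar1* (3.23), *Itgam* (3.70), *Itgb2* (0.91) and *Cd93* (1.38) up and *Itgax* (-1.03) down. Neutrophils carry *C5ar1*, *Itgam* and *Itgb2*, and the neutrophil genes went from 1.71 and 2.17 CPM in the normal to 162 and 161 CPM in the ischemic sections. Their part in the receptor values was not tested. *Fcnb*, *Colec10* and *Cd55b* had 0 counts in every section.

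**Figure D2:**
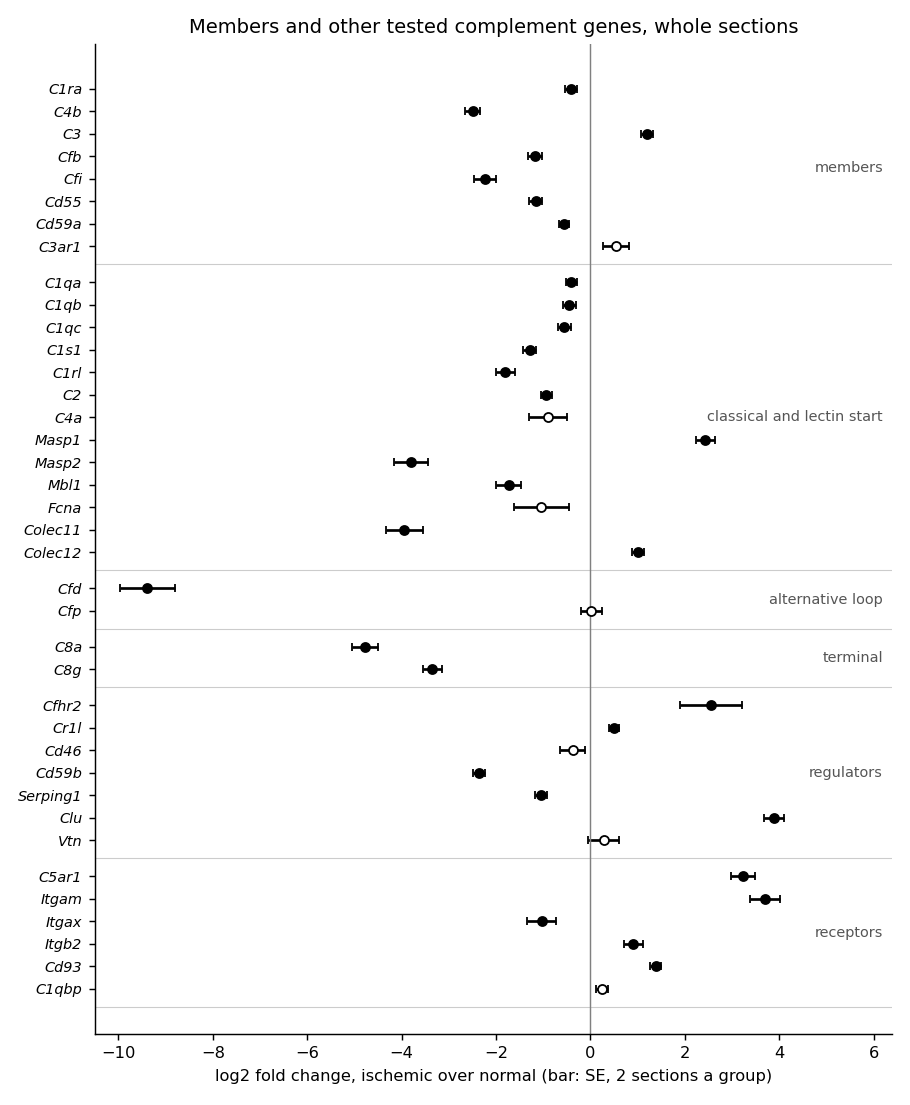
Log2 fold change of ischemic over normal sections with its SE for the 8 members and other tested complement genes, grouped by role; filled points passed edgeR's test at an adjusted p of 0.05. Points run from -9.39 (Cfd) to 3.89 (Clu), and C3 at 1.20 is the only filled member to the right of 0.

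Spots were then assigned to cortex, outer stripe, inner stripe, inner medulla or pelvis from marker genes of each zone, and counts were summed per section and zone. The 20 sums entered 1 model as separate samples (10 residual degrees of freedom), though they came from 4 sections. Zones of a section were not paired in it, so its p-values rest on fewer sections than sums. The question was whether the whole-section changes were shared by all zones. Cortex held 46.8% and 44.0% of the UMIs in the normal and 40.5% and 35.8% in the ischemic sections. Inner medulla held 2.53% and 5.09% against 8.46% and 9.03%. The part of this make-up in the whole-section changes was not tested. In the 5 zones, 30 of 40 tests of a member were called, 4 higher and 26 lower. The members called higher and lower were 1 and 3 in cortex, 2 and 6 in outer stripe, 1 and 5 in inner stripe, 0 and 7 in inner medulla, and 0 and 5 in pelvis. Over 14174 tested genes the share called higher and lower was 20.2% and 19.9% in cortex (40.1% in all), 27.4% and 29.5% in outer stripe (56.9%), 22.2% and 25.9% in inner stripe (48.2%), 13.9% and 21.2% in inner medulla (35.1%), and 10.7% and 14.6% in pelvis (25.2%). Of the 48 other complement genes, 29 could be tested by zone, and beside these shares the numbers higher and lower were 6 and 13 in cortex, 8 and 14 in outer stripe, 8 and 11 in inner stripe, 5 and 15 in inner medulla, and 6 and 10 in pelvis. With ischemic 1 left out 18 of the 40 were called, and with ischemic 2 left out 20.

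*C3* was called higher after ischemia in cortex and both stripes and lower in inner medulla and pelvis. In cortex it was 18.6 and 26.2 CPM in the normal and 100.3 and 88.7 CPM in the ischemic sections, a rise of 2.09 on the log2 scale (SE 0.21, edgeR adjusted p = 2.10e-07). In the outer stripe it was 11.3 and 16.9 against 44.3 and 49.4 CPM (log2 difference 1.75, SE 0.23, edgeR adjusted p = 2.66e-06). In the inner stripe the step was smaller, from 10.1 and 8.65 to 19.2 and 15.2 CPM (0.85, SE 0.32, edgeR adjusted p = 0.0345), and the call was lost without ischemic 1 (0.253) or without ischemic 2 (0.0861).

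In the spots assigned to inner medulla the change was the other way. There *C3* went from 128.3 and 64.7 CPM in the normal to 12.6 and 10.2 CPM in the ischemic sections (log2 difference -3.02, SE 0.30, edgeR adjusted p = 4.80e-07). The 2 normal values were themselves far apart, both above the ischemic ones. In the pelvis the values were 78.5 and 84.7 against 40.3 and 45.1 CPM (-0.94, SE 0.28, edgeR adjusted p = 0.0178). The ischemic change in inner medulla differed from that in cortex by -5.11 on the log2 scale (SE 0.37, edgeR adjusted p = 1.67e-07), while that in outer stripe did not differ from cortex by the test (-0.34, adjusted p = 0.548). In inner stripe the difference of -1.24 had an adjusted p of 0.0486, and it was not called in 9 of 13 alternative fits.

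Fat moved with these inner zone values. The adipocyte genes summed to 964 and 116 CPM in normal inner medulla and to 472 and 153 CPM in normal pelvis, against 67.1 and 35.1 CPM in normal cortex. In the ischemic sections no zone was above 6.01 CPM. With fat spots left out, *C3* in normal inner medulla was 39.2 and 50.8 CPM, still above the ischemic 12.9 and 10.5 CPM, and the log2 difference went from -3.02 to -2.02 (edgeR adjusted p = 9.07e-05). In the pelvis it went to -0.66 and was no longer called (adjusted p = 0.0696). Without fat spots, inner medulla of normal 1 rested on 73 spots and 23 *C3* counts. The fat-derived *Cfd* was still lower in ischemic sections without these spots, and whether fat RNA remained in the other spots was not tested. T cell genes summed to 32.1 and 84.9 CPM in normal and 3.46 and 2.82 CPM in ischemic inner medulla, and their part was not tested.

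The spots assigned to inner medulla also differed between conditions in the genes of their own and nearby tissue. *Akr1b3*, the aldose reductase of the inner medulla, was at 2126 and 1169 CPM in the normal and 110.4 and 160.3 CPM in the ischemic sections. *Aqp2*, the collecting duct water channel, was at 2902 and 2504 against 431 and 896 CPM. *Umod*, made in the thick ascending limb, was higher in the ischemic spots, at 2363 and 3133 against 4319 and 4117 CPM. The urothelial gene *Upk3a* was at 168 and 283 against 1.26 and 4.93 CPM, and mesothelial genes summed to 45.3 and 70.7 against 11.95 and 17.3 CPM. The zone held 134 and 224 spots in the normal and 292 and 300 spots in the ischemic sections. So the values of *C3* and of every other member in this zone compare spots of unlike content. Pelvis spots were unlike too. T cell genes there summed to 48.0 and 116 CPM in the normal and 2.78 and 1.96 CPM in the ischemic sections. Macrophage genes summed to 234 and 349 against 187 and 105 CPM. Fibroblast genes went the other way, at 505 and 654 against 800 and 787 CPM, as did neutrophil genes (1.39 and 4.58 against 298 and 113 CPM). The part of these tissues and cell types in the values of either zone was not tested.

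**Figure D3:**
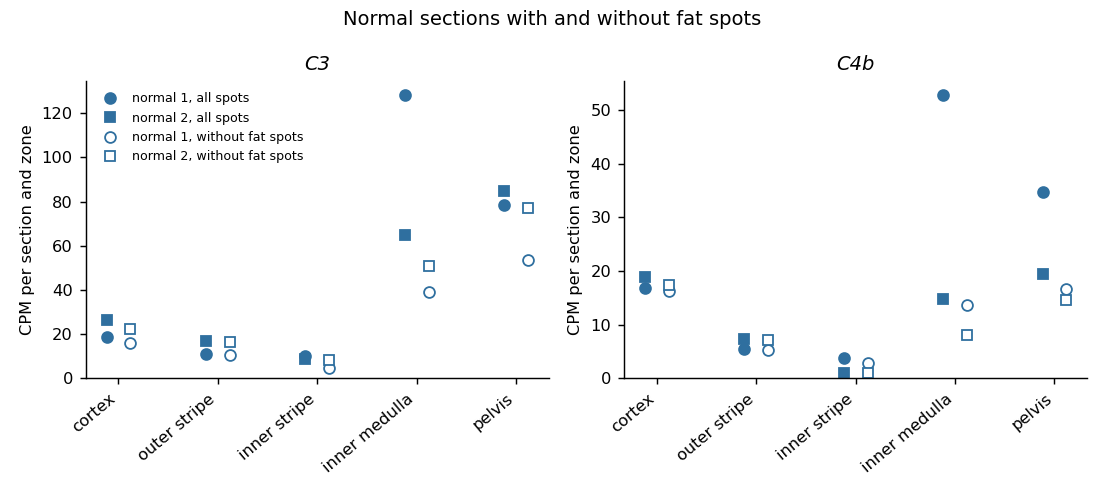
C3 and C4b in the 2 normal sections by zone (CPM, y axis from 0), with all spots (filled) and with fat spots left out (open). In inner medulla normal 1 goes from 128.3 to 39.2 CPM for C3 and from 52.8 to 13.6 CPM for C4b, and cortex values move little.

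*C4b* was lower after ischemia in all 5 zones. In cortex it was 16.8 and 19.0 CPM in the normal and 4.95 and 3.70 CPM in the ischemic sections (log2 difference -2.02, SE 0.34, edgeR adjusted p = 0.000111), and in outer stripe 5.54 and 7.42 against 1.13 and 1.33 CPM (-2.36). In inner medulla the normal sections had 56 and 25 counts and the ischemic ones 2 and 2. The fall there exceeded that in cortex by -3.48 (SE 0.93, edgeR adjusted p = 0.0267), and without fat spots that difference was -1.87 and was not called (adjusted p = 0.153). The inner stripe rested on 18, 3, 3 and 2 counts, and its call was lost without normal 1 (adjusted p = 0.44).

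*C1ra* did not follow *C4b* through the zones. It was lower in outer stripe, from 11.6 and 11.6 to 5.98 and 7.16 CPM (log2 difference -0.82, edgeR adjusted p = 0.0017), in inner medulla, from 29.2 and 19.0 to 9.75 and 10.9 CPM (-1.17, 0.0027), and in pelvis, from 22.2 and 32.6 to 15.97 and 9.80 CPM (-1.12, 0.007). In cortex its values of 13.3 and 15.5 against 11.4 and 12.5 CPM gave -0.26, and in inner stripe those of 10.6 and 12.8 against 13.1 and 13.5 CPM gave 0.21, neither of them called. Without fat spots the inner medulla call was lost (adjusted p = 0.0895).

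*Cfb* fell in both stripes and in inner medulla. In inner stripe it went from 119 and 60.6 CPM to 17.5 and 13.7 CPM (log2 difference -2.54, SE 0.37, edgeR adjusted p = 1.40e-05). In outer stripe it went from 196 and 167 CPM to 65.4 and 66.4 CPM (-1.46, 0.000611) and in inner medulla from 131 and 56.4 CPM to 15.7 and 25.7 CPM (-2.14, 0.000453). Cortex, with the highest levels, was 266 and 214 CPM in the normal and 147 and 142 CPM in the ischemic sections, without overlap but not called (-0.73, SE 0.31, adjusted p = 0.0652); it was called in 9 of the 13 alternative fits for this value. The inner stripe fall exceeded that of cortex by -1.81 (SE 0.48, edgeR adjusted p = 0.0173). In the pelvis the sections overlapped, at 70.9 and 44.6 against 29.2 and 64.7 CPM.

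*Cfi* was highest in cortex in both conditions and was lower after ischemia in 4 zones. Its cortical level was 8.60 and 11.5 CPM in the normal and 2.64 and 2.43 CPM in the ischemic sections (log2 difference -1.96, SE 0.31, edgeR adjusted p = 5.81e-05). In outer stripe it was 3.69 and 3.84 against 1.24 and 0.728 CPM. Deeper zones held 0 or 1 ischemic counts a section, against 1 to 9 normal counts, so their differences could not be sized.

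*Cd55* was lower in all 5 zones, with log2 differences of -1.91 to -1.10. In its highest zones the levels were 39.6 and 33.8 against 15.3 and 18.3 CPM in pelvis (log2 difference -1.12, edgeR adjusted p = 0.0276) and 28.6 and 25.7 against 12.7 and 12.7 CPM in outer stripe (-1.10, 0.000522). Cortex was 11.1 and 10.4 against 3.75 and 5.31 CPM (-1.27, 0.00146). None of its 3 tested differences between a zone's change and that of cortex was called. Without fat spots the inner medulla value went from -1.33 to -0.91 and was not called (adjusted p = 0.196).

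*Cd59a* fell in every zone but cortex, where it was not called. Cortex was 60.6 and 65.9 CPM in the normal and 57.7 and 53.0 CPM in the ischemic sections (log2 difference -0.19, SE 0.13, edgeR adjusted p = 0.28). Inner stripe went from 127 and 155 CPM to 64.2 and 65.5 CPM (-1.11, 2.40e-06) and inner medulla from 119 and 157 CPM to 63.9 and 60.6 CPM (-1.16, 9.69e-06). Outer stripe went from 64.2 and 57.9 CPM to 35.5 and 32.5 CPM (-0.85, 4.02e-05) and pelvis from 93.1 and 87.6 CPM to 54.1 and 47.7 CPM (-0.83, 0.00152). The fall exceeded that of cortex in outer stripe (-0.65, SE 0.19, edgeR adjusted p = 0.0338), inner stripe (-0.92, SE 0.19, 0.00339) and inner medulla (-0.97, SE 0.20, 0.00562). The outer stripe difference was not called in 6 of 13 alternative fits.

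*C3ar1* was called in 1 zone, the outer stripe, where 7 and 12 normal counts stood against 22 and 23 ischemic counts (log2 difference 1.23, SE 0.42, edgeR adjusted p = 0.0187). The levels were 0.680 and 1.53 CPM against 2.27 and 2.79 CPM. It was not called with DESeq2 (0.0608), or without normal 1 (0.317), ischemic 1 (0.0881) or ischemic 2 (0.183). Neutrophil genes were at their highest ischemic level for both sections in the same zone, 333 and 338 CPM, and their part was not tested.

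The ischemic change differed from that of cortex for 3 members in inner medulla (*C3*, *C4b*, *Cd59a*), 3 in inner stripe (*C3*, *Cfb*, *Cd59a*) and 1 in outer stripe (*Cd59a*). All 7 were lower than in cortex, and the share of all 14174 tested genes called lower in those comparisons was 5.6%, 8.35% and 7.33%.

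Several of these zone calls rested on every section being present. In the pelvis the calls of *C3*, *C4b*, *Cd55* and *Cd59a* were lost without ischemic 1 (edgeR adjusted p = 0.217, 0.105, 0.17 and 0.0567) and without ischemic 2 (0.147, 0.0554, 0.0981 and 0.102), and that of *C1ra* without normal 2 (0.0928) or ischemic 2 (0.205). In inner medulla *C1ra* was lost without normal 1 (0.0539) or ischemic 1 (0.0585), *Cd55* without normal 1 (0.0514) or ischemic 2 (0.127), and *Cfi* without normal 2 (0.134), ischemic 1 (0.0589) or ischemic 2 (0.12). In inner stripe *C4b* was also lost without ischemic 1 (0.17) or ischemic 2 (0.222), and *Cfi* without ischemic 1 (0.0506). *C1ra* in outer stripe (0.0821) and *Cd55* in cortex (0.0744) were lost without ischemic 1. The calls of *C3* in cortex, outer stripe and inner medulla were made with any 1 section left out. Of the differences between zones, that of *C4b* in inner medulla was lost without ischemic 1 (0.45) or 2 (0.307), as were those of *Cfb* in inner stripe (0.215 and 0.301) and of *Cd59a* in inner stripe (0.276 and 0.171), inner medulla (0.28 and 0.249) and outer stripe (0.464 and 0.439).

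**Figure D4:**
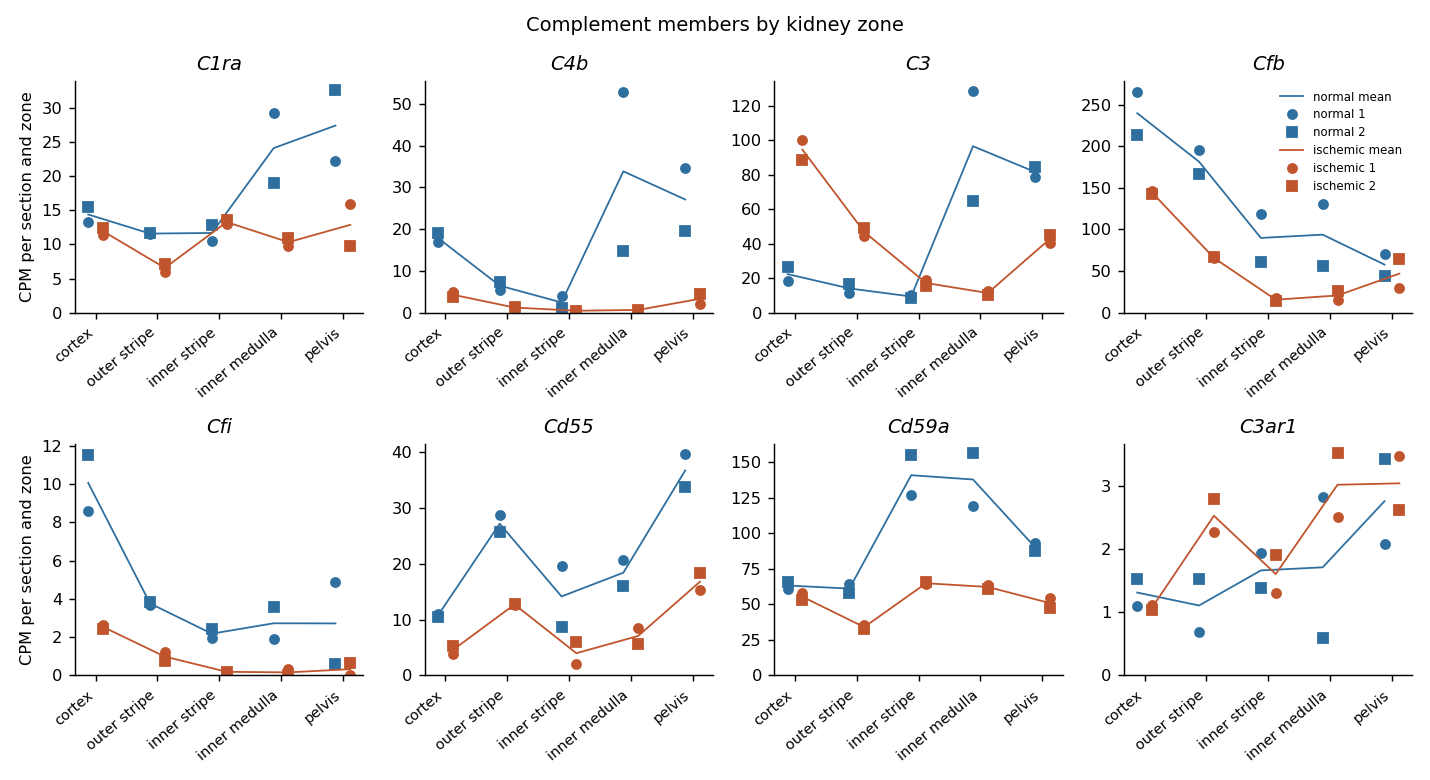
Level of each member (CPM, y axis from 0) in 5 kidney zones for each normal (blue) and ischemic (orange) section, with lines through the group means. C3 crosses over, from 100.3 and 88.7 CPM in ischemic cortex against 18.6 and 26.2 in normal cortex to 12.6 and 10.2 against 128.3 and 64.7 in inner medulla, while Cfb, Cfi and C4b are highest in normal cortex among cortex and stripes.

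The zone order within a condition also changed for *C3*. In normal sections *C3* was above its cortical level in inner medulla (log2 difference 2.07) and pelvis (1.88) and below it in inner stripe (-1.22). In ischemic sections it was below cortex in all 4 other zones (-1.01 in outer stripe, -2.46 in inner stripe, -3.04 in inner medulla and -1.15 in pelvis). Without fat spots the normal inner medulla was still above cortex (1.35, edgeR adjusted p = 0.000719).

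For the other members some calls against cortex were made in both conditions and some in 1 of them. *Cfb* was below cortex in inner stripe, inner medulla and pelvis in both conditions, and *Cfi* in all 4 zones in both. *Cd55* was above cortex in outer stripe (log2 difference 1.34 normal, 1.51 ischemic) and pelvis (1.76 and 1.91) in both conditions. *Cd59a* was above cortex in normal inner stripe (1.15) and inner medulla (1.14), and the same contrasts in ischemic sections were not called (0.23 and 0.17). *C4b* in inner medulla was not called against cortex in normal sections (0.80) and was below it in ischemic ones (-2.68). *C1ra* was above cortex in normal inner medulla (0.70) and pelvis (0.96) and was not called in the same ischemic zones (-0.21 and 0.10), while the test of that difference in inner medulla did not pass (-0.91, edgeR adjusted p = 0.102). *C3ar1* was called against cortex in ischemic outer stripe (1.21) and inner medulla (1.46) and in no normal zone. Members called against cortex were 3, 5, 5 and 6 of 8 in normal outer stripe, inner stripe, inner medulla and pelvis, where 15.1%, 20.9%, 36.4% and 43.2% of all genes were called. In ischemic sections they were 8, 4, 5 and 4 of 8, against 26.5%, 42.6%, 39.6% and 31.8% of all genes. Neighbouring inner zones were compared with cortex and not with each other.

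Among single spots, with counts summed over adjacent spots, *C3* and *Cfb* were correlated in the ischemic sections and hardly at all in the normal ones. Their Spearman correlation was 0.02 and 0.08 in the normal sections (2616 and 2682 spots) and 0.60 and 0.51 in the ischemic ones (2401 and 2613 spots). Spots share a library, depth and neighbours, so these values are descriptions. Among cortical spots alone the ischemic correlations were 0.20 and 0.09.

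*C3* was low where injury genes were high in the ischemic sections. Against the summed injured tubule genes (*Havcr1*, *Lcn2*, *Krt20*, *Krt18*, *Vcam1*, *Sox9*) the spot correlation of *C3* was -0.70 and -0.66 in the ischemic and 0.25 and 0.20 in the normal sections. In the normal sections *Krt18* gave 59.4 and 90.4 of the summed 77.5 and 114 CPM, and the sum peaked in pelvis (1002 and 853 CPM). In the ischemic sections *Lcn2* gave 2794 and 3284 of 4493 and 5010 CPM. So correlations with this list in the normal sections do not set *C3* or *Cfb* against injury. Among ischemic cortical spots alone the correlation of *C3* was -0.42 and -0.32 with the list, -0.43 and -0.36 with *Havcr1* and -0.20 and -0.11 with *Lcn2*. *Cfb* was opposed to the summed injured tubule genes in both conditions, at -0.405 and -0.486 in the normal and -0.827 and -0.646 in the ischemic sections. Among cortical spots alone the *Cfb* values were -0.246 and -0.212 in the normal and -0.283 and -0.085 in the ischemic sections. The injured tubule genes summed to 2319 and 2278 CPM in ischemic cortex and to 8860 and 9617 CPM in ischemic inner medulla, the order opposite to that of *C3*.

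Other marker lists went with the members too. In the ischemic sections *Cfb* was opposed to fibroblast (-0.709 and -0.561), endothelial (-0.678 and -0.565) and macrophage genes (-0.597 and -0.507), and *C3* to endothelial genes (-0.559 and -0.473). Among ischemic cortical spots alone these were much weaker. For *Cfb* they were -0.102 and -0.259 (fibroblast), -0.095 and -0.105 (endothelial) and 0.007 and -0.026 (macrophage). For *C3* and endothelial genes they were -0.074 and 0.070. Only cortex was taken alone, and how far the whole-section values follow the layout of the zones was not tested. *Cfb* and *Cd59a* were opposed in the normal sections (-0.38 and -0.42) and less so in the ischemic ones (-0.18 and -0.21). *Cd59a* went with endothelial genes over all spots (0.45 and 0.56 in normal, 0.33 and 0.37 in ischemic sections). No correlation of *Cd59a* was taken within a zone. In the normal sections both were higher in inner medulla than in cortex. The endothelial genes summed to 839 and 741 against 428 and 491 CPM, and *Cd59a* was at 119 and 157 against 60.6 and 65.9 CPM. *C3ar1* went weakly with macrophage genes (0.12 and 0.14 in normal, 0.26 and 0.21 in ischemic sections), at counts too sparse to read further.

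**Figure D5:**
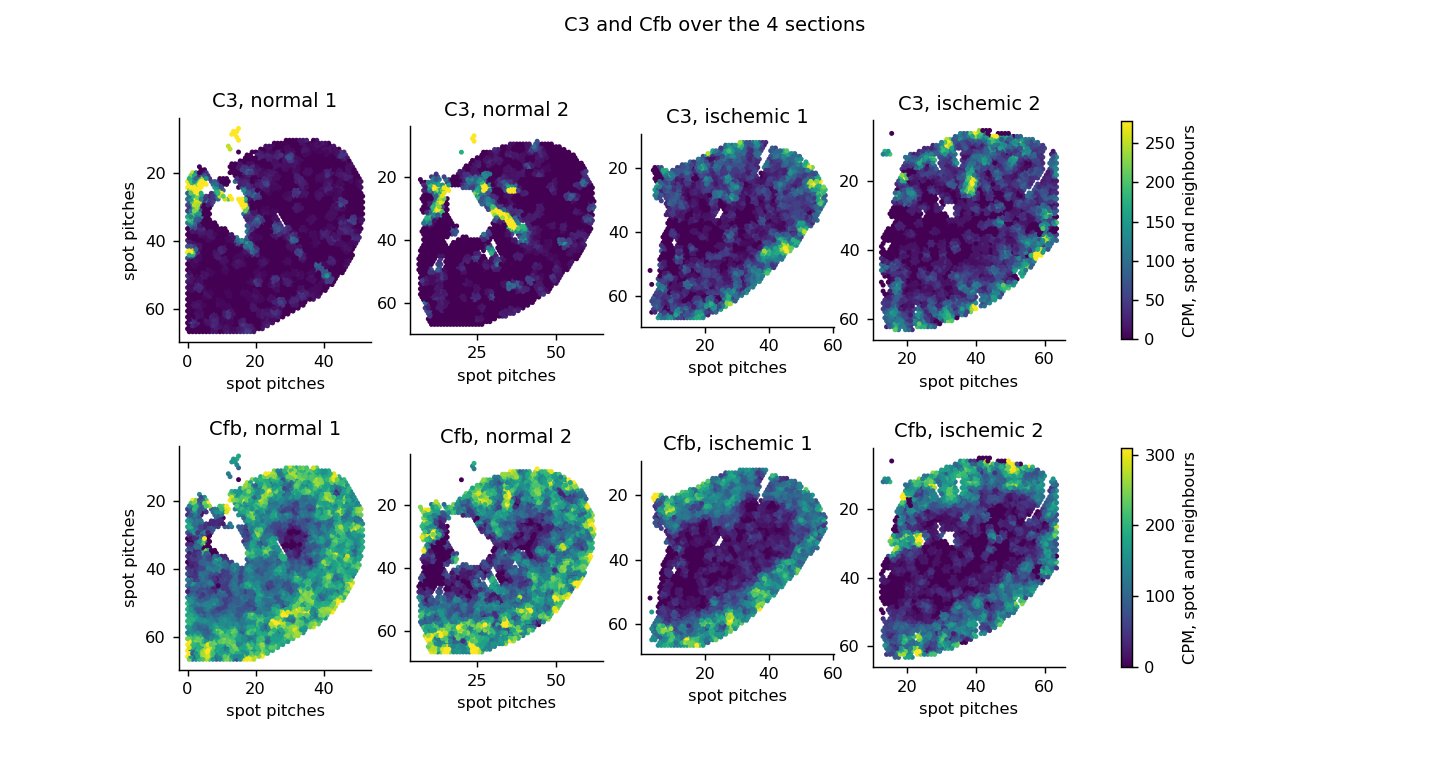
C3 (top) and Cfb (bottom) over the spots of each section, as CPM summed with the adjacent spots, with axes in spot pitches and colours capped at the 99th percentile of all spots (278.5 CPM for C3, 308.7 CPM for Cfb). Bright C3 in the normal sections sits in patches beside the gap in the tissue, while in the ischemic sections it spreads over the rim of the kidney, where Cfb is also bright.

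Over the 20 sums per section and zone, the genes whose log2(CPM + 1) went most closely with each member were sought among 12654 genes. *Cfb* went with *Kcnj15*, *Aass* and *Acat2* (Pearson correlation 0.97, 0.96 and 0.96), and *Cfi* with *Prodh*, *Cyp2j9* and *Gatm* (0.95, 0.94 and 0.94). *C4b* went with *Car3*, *Tent5c* and *Apoe* (0.95, 0.93 and 0.92), and *Cd59a* with *Ptgds*, *Abhd8* and *Ranbp3l* (0.94, 0.93 and 0.92). *C1ra* had *Abca1* (0.90), *C3* had *Ifngr1* (0.89), *Cd55* had *Col23a1* (0.88) and *C3ar1* had *Tnfrsf1b* (0.83) as the nearest gene. The points share sections and zones, so these values rank likeness only. Among the members themselves the closest pair was *Cfb* and *Cfi* (0.84).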

How the data were processed

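The deposited files hold UMI counts per gene and spot, with no normalization. The authors made them with Space Ranger 1.3.0 on mm10; no source used here names the annotation release. Sections beyond these 4 were not analysed here. The 8 members and all gene lists were chosen with earlier results of these data known. Counts were summed per section, or per section and zone, and tested with edgeR 4.0.16 (R 4.3.3; filterByExpr, TMM, glmQLFit and glmQLFTest), adjusted over all genes tested. Each spot took the zone with the highest score of its marker genes, pooled over the spot and its neighbours; pelvis needed at least 10 marker counts and the top 5% of spots. CPM uses TMM-scaled totals. DESeq2 1.42.0, other scalings and filters, other zone rules and each section left out were alternatives. Leaving out fat spots was chosen after seeing the data. On simulated counts for the whole-section comparison (15305 genes, 200 of them changed), edgeR recovered 86 of 100 genes changed 2-fold and 100 of 100 changed 4-fold, with 25 false calls. In the data 60.6% of genes were called, so these rates need not carry over. Changes under 2-fold, such as those of *C1ra* and *Cd59a*, were not simulated. The sections of a group differed by more than counting noise (chi-square per degree of freedom 39.2 normal, 6.91 ischemic). Named genes were the members, the complement list, marker lists and, for each member, the 3 genes with the closest zone pattern. Array barcodes recur in every section because capture areas use the same barcode set: 1490 were tissue spots in all 4. Some genes of the complement list are counted but not reported here by name.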

Additional observations from a re-analysis of the deposited data

Results flagged for a closer look

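These 7 results differed between zones under the same contrast, by the test of the difference itself in edgeR's zone model. That model did not pair the zones of a section. The ischemic change of *C3* in inner medulla minus that in cortex was -5.11 on the log2 scale, and in inner stripe it was -1.24. For *C4b* the inner medulla difference was -3.48. For *Cfb* the inner stripe difference was -1.81. For *Cd59a* the differences were -0.65 in outer stripe, -0.92 in inner stripe and -0.97 in inner medulla. Of these, only *C3* in inner medulla was called in each of its 13 alternative fits. No group had enough sections for a test of single outlying sections.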

How the results depend on the processing

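The calls for *C3*, *C4b*, *Cfb*, *Cfi* and *Cd55* over whole sections held their direction and call in all 13 alternatives, with log2 fold changes of 1.02 to 1.52, -2.63 to -2.23, -1.40 to -0.89, -2.43 to -1.97 and -1.28 to -0.88. DESeq2 called 3643 genes higher and 3917 lower, against 4737 and 4542 with edgeR, and library totals gave 5750 higher and 2829 lower with a median of all genes at 0.31. In zone tests the members called ranged from 18 to 30 of 40 with 1 section left out, the zone against cortex tests from 21 to 44 of 64 against 40, and the outer stripe differences from 0 to 2 of 8 against 1. That last count was 0 with zones from single spots, without zone boundary spots, without fat spots and with no filter, and 2 with the section as a block; the cause was not tested. The *Cfb* log2 difference in pelvis, -0.28, ranged from -0.98 to 0.18 with 1 section left out, and reversed without normal 1 (0.14) and without ischemic 1 (0.18). The replicate numbers share only a number between conditions (correlation of deviations 0.20 over 2 pairs); with the replicate block the whole-section calls were 10089 against 9279, and 7 of the 8 members were called, as without it. With 1 section left out, the lone section of a group was assumed to vary like the others. Depth limits *Cfi* and *C4b* in the deep zones, and *C3ar1* everywhere. Zone labels of ischemic pelvis were least stable, with 28.3% and 28.5% of spots keeping it when neighbours were not pooled.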
